A study of Arabidopsis thaliana with 8 samples.

Results

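The 5′ ends of MIRNA precursor fragments in fiery1 seedlings were compared with those in wild-type seedlings of Arabidopsis thaliana. The comparison took the 2 fiery1 libraries and the 2 wild-type libraries of a series of 8, chosen by their genotype labels, and tags of 26 nt or more summed by precursor and by the position of the 5′ end. The series was made by SPARE (Specific Parallel Analysis of RNA Ends), in which an RNA adaptor is ligated to free 5′ ends and cDNA is made with primers placed downstream of each miRNA precursor. A tag therefore starts where a precursor was cut or degraded and runs towards its 3′ part. The fiery1 plants carried the label Fiery1 -/- and the wild-type plants were Col. Plants of both genotypes were 10 days old, were grown in continuous light and were labelled as seedling whole bud, and no transgene was named. Nothing in the labels says that the 2 libraries of a genotype came from separate plants, so the p-values measure the spread between libraries, which may be technical. For precursor abundance that spread was estimated with the hyl1 and se libraries of the series, also 10 days old, in the same model.

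FIERY1, also called SAL1, is a phosphatase that removes 3′-phosphoadenosine 5′-phosphate, a nucleotide that inhibits the XRN 5′-to-3′ exoribonucleases. The nuclease DCL1 releases the miRNA duplex from a stem-loop precursor by successive cuts, which start at the base of the stem in most plant precursors and at the loop in others. After a cut at the base the 3′ remnant begins just behind the duplex strand on the 3′ arm, and after a cut at the loop the 3′ fragment begins with that strand. Uncapped 3′ fragments of this kind are known substrates of the XRN enzymes.

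The stretches below are shown because the results turn on their 2 ends. Each is the duplex strand on the 3′ arm in capitals with 12 nt on either side in lower case, read 5′ to 3′ in the sense of the precursor from TAIR10.1, with strand limits from the RefSeq annotation. An end at the first capital letter is called loop-proximal, and an end at the first small letter behind the capitals is called base-proximal. Both were counted within 1 nt.
MIR156a (AT2G25095), chr2:10676458-10676503, minus strand: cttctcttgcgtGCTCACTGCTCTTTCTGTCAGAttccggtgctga
MIR159b (AT1G18075), chr1:6220801-6220845, plus strand: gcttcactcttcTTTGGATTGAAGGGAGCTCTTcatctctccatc
MIR162a (AT5G08185), chr5:2634924-2634968, minus strand: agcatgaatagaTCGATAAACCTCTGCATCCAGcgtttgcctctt
MIR171c (AT1G62035), chr1:22930083-22930127, minus strand: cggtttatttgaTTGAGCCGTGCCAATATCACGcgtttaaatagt
MIR399b (AT1G63005), chr1:23345375-23345419, minus strand: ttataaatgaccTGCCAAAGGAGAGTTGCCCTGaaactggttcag
MIR399c (AT5G62162), chr5:24962556-24962600, plus strand: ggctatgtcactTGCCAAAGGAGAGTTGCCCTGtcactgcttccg
The mature miRNAs of these precursors, with the seed (bases 2 to 8) in capitals, fall into 5 seed groups.
miR156a-5p: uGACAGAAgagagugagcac
miR159b-3p: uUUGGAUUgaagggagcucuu
miR162a-3p: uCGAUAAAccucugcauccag
miR171c-3p: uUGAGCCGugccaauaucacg
miR399b: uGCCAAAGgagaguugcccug
MIR156c and MIR156d give the same mature miRNA as MIR156a, and MIR399c the same as MIR399b.

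Tags of 26 nt or more numbered 453388 and 795030 in the fiery1 libraries and 56554 and 121429 in the wild-type libraries, which was 96.3% and 96.8% of all counts in fiery1 against 70.5% and 95.9% in wild type. They came from 87 and 88 precursors in fiery1 and from 51 and 54 in wild type. The difference in depth means that a share listed at 0 in wild type allows more than one listed at 0 in fiery1, and such limits (3 counts of the precursor's total, covering counting error only) are given where they matter. Of all 1426401 counts, 2 were of tags that also occur beside another precursor. A deposited column named hits, whose meaning is not stated, was above 0 for 82.0% of the MIR398c counts and 96.7% of the MIR156c counts and for no other precursor, and no tag was listed for more than 1 precursor. The FIERY1 transcript was not analysed here.

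Ends at the base of the duplex made up more of the fiery1 libraries, and ends at the loop side made up less. Over the precursors with an annotated 3′ arm, base-proximal ends held 69.6% and 68.0% of the counts in fiery1, against 43.0% and 45.8% in wild type. Loop-proximal ends held 5.93% and 6.83% in fiery1, against 31.9% and 27.6% in wild type. Ends inside the loop held 2.12% and 2.91% in fiery1, against 8.20% and 9.86% in wild type. In each of these 3 classes both fiery1 libraries lay on 1 side of both wild-type libraries, and the exact two-sided permutation test gave 0.33, below which 4 libraries split evenly cannot go. The loop class was nearly all MIR159b, which held 85.9% of it in fiery1 and 97.6% in wild type, and without MIR159b its difference changed sign, at 0.18 points higher in fiery1. For base-proximal ends the difference was 12.08 points without MIR159b and 24.39 points with it, the shares without it being 73.1% and 73.6% in fiery1, against 60.0% and 62.5% in wild type. For loop-proximal ends it was -12.33 points without MIR159b and -23.35 points with it, and the genotypes did not overlap in either class.

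The remaining classes held fewer counts. Ends downstream of the duplex held 12.7% and 13.7% in fiery1, against 12.2% and 6.28% in wild type (exact permutation p = 0.33). That difference of 3.97 points was 0.80 points without MIR159b (exact permutation p = 1) and turned to -8.05 points when shorter tags were included. Ends at the start of the 5′-arm strand held 1.5% and 1.0% in fiery1, against 0.00921% and 0.000854% in wild type (exact permutation p = 0.33). Of the 14133 fiery1 counts in this class 13006 came from MIR398c. Ends on the 3′-arm strand, on the 5′-arm strand and upstream of the hairpin overlapped between the genotypes, and ends on the loop side of the 5′ arm held at most 0.00369% of any library.

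**Figure D1:**
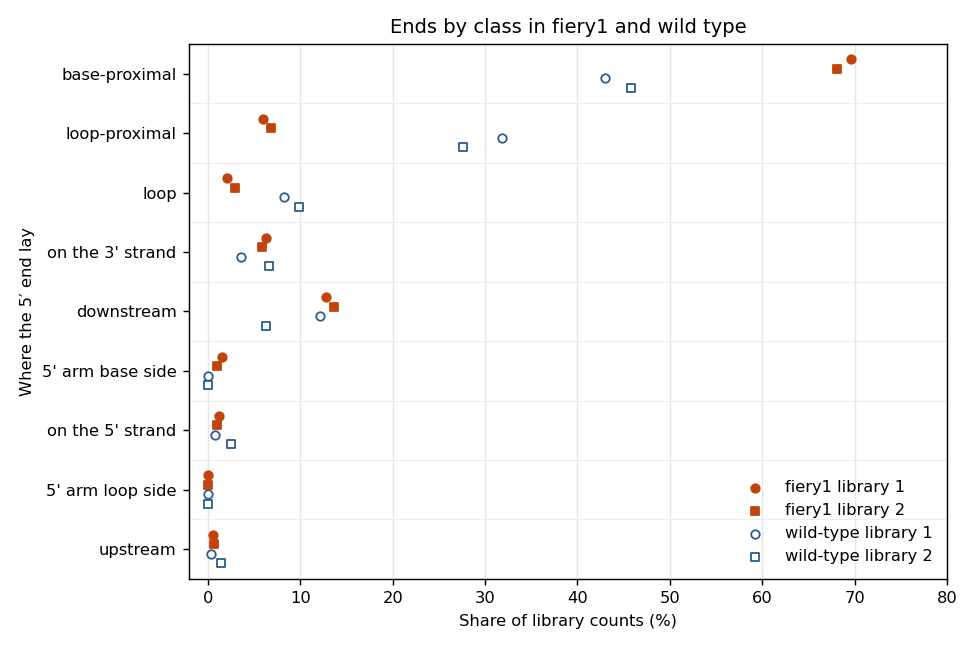
Share of the counts of each library (x axis, %) in 9 classes of 5′ end (y axis), with 1 symbol for each of the 2 fiery1 and 2 wild-type libraries. Base-proximal ends lie near 69% in fiery1 and near 44% in wild type, and loop-proximal ends near 6% in fiery1 and near 30% in wild type.

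Tested precursor by precursor, the base-proximal share changed in 12 of the 23 precursors that had an annotated 3′ arm and at least 20 counts in each of the 4 libraries. It was higher in fiery1 in 7 (30.4% of those tested) and lower in 5 (21.7%), by limma on the logit share with Benjamini-Hochberg adjustment and a threshold of 0.05. The 7 that rose were MIR156a, MIR156c, MIR156d, MIR159b, MIR162a, MIR171c and MIR399b. The first 6 belong to families known to be cut from the loop towards the base, and MIR399b belongs to a family cut from the base. The rise of MIR399b depends on the window of 1 nt. The position 2 nt before its site, just outside that window, held 61.5% and 57.7% in fiery1, against 99.4% and 99.9% in wild type. Of the 7 tested members of the loop-to-base families, 6 rose and 0 fell, with a median difference of 46.4 points, against a median of 9.20 points over all 23. Of the 12 tested members of conserved base-to-loop families, 1 rose and 4 fell, with a median difference of 0.331 points. Of these 4, MIR166a, MIR166b and MIR167a were at 100% in both wild-type libraries and could only fall. MIR399c, at 99.9% and 99.8%, and MIR165a, at 99.0% and 98.6% in wild type, had little room to rise. More room was left in MIR408 (61.5% and 43.8%), MIR398c (62.8% and 20.3%) and MIR399b (0.402% and 0.0949%). The medians of the 2 lists thus rest on unlike wild-type shares. Of the 6 tested nutrient-responsive precursors, 1 rose and 1 fell.

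MIR156a, MIR156c and MIR156d encode miR156, which represses SPL transcription factors and so delays the change from juvenile to adult growth. In MIR156a base-proximal ends were 80.5% and 85.9% of the counts in fiery1, against 21.7% and 21.7% in wild type. The log2 odds were higher by 4.18 ± 0.56 (SE; limma, adjusted p = 0.00867). In MIR156c they were 95.2% and 92.4% in fiery1, against 33.8% and 5.02% in wild type (limma, adjusted p = 0.0223). All fiery1 libraries thus lay above both wild-type libraries, while the wild-type libraries of MIR156c were far apart. In MIR156d base-proximal ends were 71.3% and 67.3% in fiery1, against 0.412% and 0% in wild type (limma, adjusted p = 0.00286). MIR156d had only 243 and 134 wild-type counts, so the 0% allows up to 2.24%.

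MIR162a encodes miR162, which targets the DCL1 transcript. Its base-proximal share was 74.2% in both fiery1 libraries, against 18.6% and 37.0% in wild type (limma, adjusted p = 0.0336). The position 2 nt before the site held 5.38% and 6.32% of MIR162a in fiery1, against 35.6% and 0% in wild type. MIR159b encodes miR159, a repressor of GAMYB-like transcription factors, and was 1 of the 2 most abundant precursors. Its base-proximal share was 36.2% and 37.7% in fiery1, against 6.97% and 3.95% in wild type, with log2 odds higher by 3.40 ± 0.61 (SE; limma, adjusted p = 0.0169). MIR171c encodes miR171, which targets GRAS transcription factors of the HAM group. Its base-proximal share was 33.5% and 53.2% in fiery1, against 0.0454% and 0.0775% in wild type, where it rested on 1 and 2 counts (limma, adjusted p = 0.00286). MIR171b, which yields the same miR171 strand, did not pass, at 71.4% and 70.4% in fiery1, against 100% and 33.8% in wild type. Its 2 wild-type libraries lay on opposite sides of the fiery1 libraries.

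The 5 precursors whose base-proximal share fell had nearly all of their ends at the base in wild type. They were MIR166a and MIR166b (miR166, HD-ZIP III transcription factors), MIR167a (miR167, auxin response factors), MIR173 (miR173, the trigger of trans-acting siRNA formation) and MIR399c (miR399, the phosphate regulator PHO2). The wild-type share lay between 99.8% and 100% in each. In MIR166a, MIR166b, MIR167a and MIR173 it was 100% in both wild-type libraries, so it could only fall. The size of these falls in log2 odds depends on depth through the offset of 0.5 counts. With an offset of 0.5% of the precursor's counts, chosen after the data were seen, all 5 still passed (limma, adjusted p at most 0.0245). In MIR166a it was 95.4% and 95.2% in fiery1, against 100% and 100% in wild type (limma, adjusted p = 0.00699). In MIR167a it was 98.2% and 99.0% in fiery1, against 100% in each wild-type library, a difference of -1.37 points (limma, adjusted p = 0.0169). The 427 and 364 wild-type counts of MIR167a allow up to 0.703% and 0.824% elsewhere. In MIR399c it was 81.3% and 82.4% in fiery1, against 99.9% and 99.8% in wild type (limma, adjusted p = 0.00346). The largest of the 5 differences was in MIR173, at 73.0% and 64.1% in fiery1, against 100% in each wild-type library (limma, adjusted p = 0.0261), but the first wild-type library held 32 counts of MIR173, so that its 0% elsewhere allows up to 9.38%. At the exact position, with no tolerance of 1 nt, the sign of MIR173 was reversed. By limma no base-proximal call was left without fiery1 library 1 (8 at an unadjusted p under 0.05) or without fiery1 library 2 (7), while 15 were made without wild-type library 1 and 19 without wild-type library 2.

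The base-proximal share did not pass in the other 11 precursors. In MIR398b, the precursor with the most counts, it was 91.0% and 89.0% in fiery1, against 86.8% and 92.4% in wild type (limma, adjusted p = 0.971). In MIR169a, the source of a regulator of NF-YA subunits, it was 91.0% and 90.3% in fiery1, against 87.6% and 91.4% in wild type (limma, adjusted p = 0.856). In MIR165a, whose miRNA targets the same HD-ZIP III factors as miR166, it was 97.5% and 96.9% in fiery1, against 99.0% and 98.6% in wild type (limma, adjusted p = 0.158). The genotypes overlapped in MIR398b and MIR169a and did not overlap in MIR165a. The wild-type libraries were far apart in MIR399a, at 100% and 100% in fiery1, against 54.9% and 99.8% in wild type, and in MIR398c, at 53.2% and 48.3% in fiery1, against 62.8% and 20.3% in wild type.

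Loop-proximal ends fell in 10 of the 23 precursors (43.5%) and rose in 1 (4.35%). The fall in 2 of the 10, MIR167a and MIR399c, has no measured share behind it: both were at 0% in all 4 libraries, and the difference on the logit scale came from their depth through the offset of 0.5 counts. With an offset of 0.5% of the precursor's counts, chosen after the data were seen so that depth does not enter, 6 of the calls remained: MIR156a, MIR159b, MIR162a, MIR171c, MIR408 and MIR779. MIR157c, MIR825 and MIR403 did not pass with that offset (limma, adjusted p = 0.0652, 0.0652 and 0.152). Among loop-to-base families 4 of 7 fell and 0 rose, with a median difference of -40.6 points, against 0 points over all 23. However, MIR165a, MIR166a, MIR166b, MIR173, MIR398b, MIR399a and MIR399b were, like MIR167a and MIR399c, at 0% in all 4 libraries. Their share could not fall, and the median of 0 points is the value of such precursors. None of them is in the loop-to-base families, so the contrast is bounded by the wild-type share.

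In MIR156a loop-proximal ends were 5.33% and 6.84% of the counts in fiery1, against 78.2% and 78.2% in wild type (difference in log2 odds -5.80 ± 0.32, SE; limma, adjusted p = 0.00618). In MIR162a they were 4.68% and 2.68% in fiery1, against 45.6% and 54.2% in wild type (limma, adjusted p = 0.0112). In MIR159b they were 18.4% and 19.1% in fiery1, against 59.1% and 59.7% in wild type (limma, adjusted p = 0.0112). The loop-proximal share and the base-proximal share of these 3 precursors thus changed places as the larger of the 2 between the genotypes. In MIR171c the loop-proximal share was 3.54% and 3.92% in fiery1, against 39.0% and 56.9% in wild type (limma, adjusted p = 0.0116).

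The falls were not limited to the loop-to-base families. MIR408 encodes miR408, which targets copper proteins such as plantacyanin, and belongs to a base-to-loop family. Its loop-proximal share was 0.834% and 0.776% in fiery1, against 16.1% and 18.1% in wild type (limma, adjusted p = 0.00618), while its base-proximal share did not pass at 71.5% and 72.6% in fiery1, against 61.5% and 43.8% in wild type. MIR779, a precursor outside the conserved families, had 46.5% and 47.1% in fiery1, against 69.1% and 72.8% in wild type (limma, adjusted p = 0.0327). In MIR825, also outside the conserved families, the share was 2.85% and 8.20% in fiery1, against 48.3% and 48.1% in wild type (limma, adjusted p = 0.0285). In MIR157c the share was 8.93% and 10.7% in fiery1, against 46.3% and 31.4% in wild type (limma, adjusted p = 0.0306). Its miRNA targets SPL factors, as miR156 does. MIR157c was in neither the loop-to-base nor the base-to-loop list, so it is not an example of a fall outside the loop-to-base families. The 1 rise was in MIR403, which encodes a regulator of AGO2, at 1.5% and 5.91% in fiery1, against 0% in each wild-type library (limma, adjusted p = 0.0250).

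**Figure D2:**
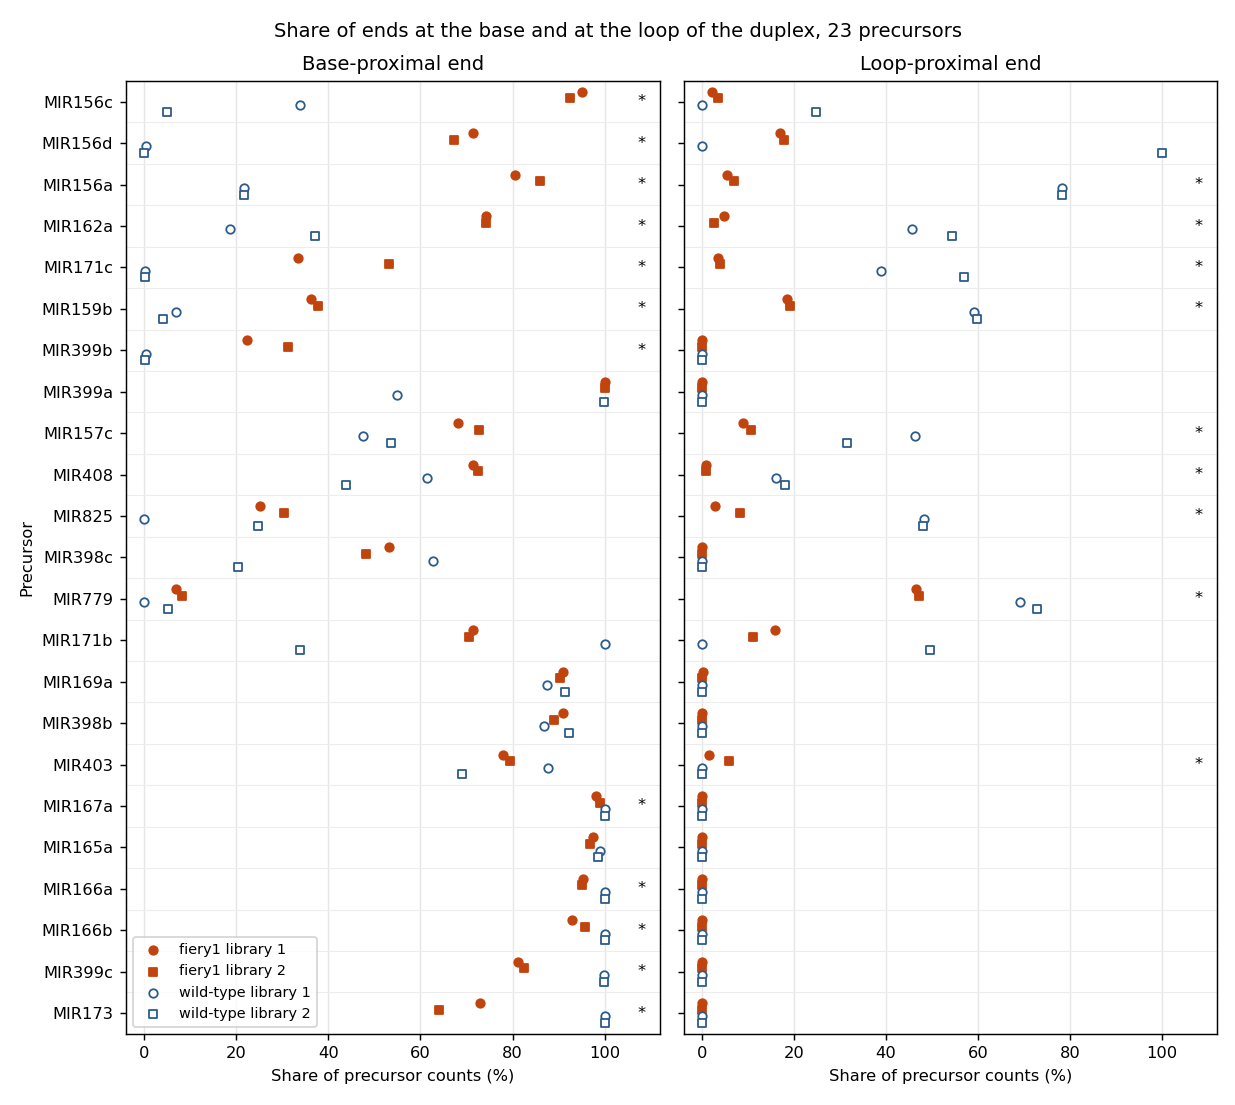
Share of each precursor's counts (x axis, %) at the base-proximal end (left) and at the loop-proximal end (right) in the 2 fiery1 and 2 wild-type libraries, for 23 precursors ordered by the base-proximal difference. A star marks an adjusted p under 0.05 (limma), and the calls of MIR167a and MIR399c at the loop carry no star because all 4 shares are 0. MIR156a stands at 80.5% and 85.9% in fiery1 and 21.7% in wild type at the base, and at 5.33% and 6.84% in fiery1 and 78.2% in wild type at the loop.

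Without regard to these 2 sites, 111 positions held at least 5% of their precursor in at least 1 library, over 25 precursors. Of these, 27 held a higher share in fiery1 (24.3%) and 14 a lower share (12.6%) at an adjusted p under 0.05 by limma. Among the 27 that rose, 11 were of the 35 base-proximal positions tested, 9 of the 34 downstream ones, 3 of the 15 on the 3′-arm strand and 1 of the 16 loop-proximal ones. No count was seen in wild type at 12 of the 27. Among the 27, only the base-proximal position of MIR156a held at least 5% in a wild-type library (21.7% and 21.7%). The others reached the 5% minimum through fiery1 alone. The number of these rises and their split by class are therefore a description, and their p-values do not allow for that choice. Some falls, such as that of MIR156c 80 nt downstream, reached the minimum through wild type alone. The 12 without a wild-type count could only be higher in fiery1. In the same way, 1 of the 14 had no fiery1 count and could only be lower. Among the 14 that fell, 5 were of the 16 loop-proximal positions, 4 of the 35 base-proximal ones and 2 of the 34 downstream ones. With the offset of 0.5% of the precursor's counts, 24 of the 27 and 12 of the 14 still passed. With edgeR's test of differential usage (diffSpliceDGE) 12 of 109 positions were called, and how many of them were among the 41 was not determined. The limma count was 0 without fiery1 library 1 (25 at an unadjusted p under 0.05) and 0 without fiery1 library 2 (27), but 67 without wild-type library 1 and 84 without wild-type library 2.

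Among the positions that passed, the largest rise was at the base-proximal end of MIR156a (chr2:10676469), with 74.7% and 81.4% of the precursor in fiery1, against 21.7% and 21.7% in wild type (limma, adjusted p = 0.0372). The next was the base-proximal end of MIR171c (chr1:22930094), whose values equal those of its base-proximal share. Larger differences that did not pass were at the base-proximal positions of MIR156c, with 92.5% and 89.8% in fiery1, against 33.8% and 4.80% in wild type (limma, adjusted p = 0.0550), and of MIR162a, with 72.8% and 71.8% in fiery1, against 18.6% and 36.8% in wild type. In MIR167b, which encodes miR167, the base-proximal position (chr3:23406270) held 33.4% and 33.5% in fiery1, against 0% in each wild-type library. Without a wild-type count it could only be higher. The 307 and 594 wild-type counts of MIR167b allow up to 0.977% and 0.505% there. In MIR400, whose miRNA targets pentatricopeptide repeat genes, the base-proximal position (chr1:11786027) held 29.0% and 18.8% in fiery1, against 0% in each wild-type library. That 0% allows up to 0.155% and 0.131%, and this position too could only be higher. The 3′-arm strand of MIR167b and MIR400 is not annotated and was predicted from the fold, so their site names rest on that prediction.

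MIR156d had 2 such positions, 1 nt to either side of its base-proximal site. The position behind the site held 39.4% and 30.1% in fiery1, against 0% in each wild-type library. The position before it held 9.32% and 33.1% in fiery1, against 0% in each wild-type library. Both could only be higher in fiery1. In MIR398c, whose miRNA targets copper/zinc superoxide dismutases, the position 1 nt behind the site held 15.4% and 12.7% in fiery1, against 0.519% and 0.0491% in wild type (limma, adjusted p = 0.0478). The site itself did not pass in MIR398c, at 37.7% and 35.4% in fiery1, against 62.3% and 20.2% in wild type.

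Several positions that rose lay well behind the duplex, in the 3′ part of the transcript. In MIR171b the position 43 nt downstream of the base-proximal site held 10.97% and 13.6% in fiery1, against 0% and 0.0373% in wild type (limma, adjusted p = 0.0313). In MIR171c the position at the same distance of 43 nt held 12.8% and 7.52% in fiery1, against 0.0454% and 0% in wild type (limma, adjusted p = 0.0226). In MIR825 the position 78 nt downstream held 11.8% and 9.11% in fiery1, against 0.101% and 0% in wild type (limma, adjusted p = 0.0310). MIR398c had 2 such positions, 59 and 72 nt downstream. The one at 72 nt held 6.40% and 7.19% in fiery1, against 0% and 0.0327% in wild type (limma, adjusted p = 0.0203). The others were at 23 nt in MIR156a, at 26 nt in MIR157c, at 68 nt in MIR166b and at 44 nt in MIR171c.

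The positions with the largest falls were the loop-proximal ends of MIR156a, MIR162a, MIR171c, MIR825 and MIR408, which follow the loop-proximal shares above, and 7 others. The largest was in MIR156c, at chr4:15415345 and 80 nt downstream of the base-proximal site. It held 1.41% and 2.01% in fiery1, against 66.0% and 63.3% in wild type (difference in log2 odds -6.74 ± 0.75, SE; limma, adjusted p = 0.0203). The libraries of a genotype lay close together here. The 30 nt around it are shown because this was the most used end of MIR156c in wild type, with the part that follows the end in capitals.
MIR156c (AT4G31877), chr4:15415331-15415360, minus strand: tctctcatgtgttctTCATCTCTCAAAGGT

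In MIR398c a position on the 5′-arm strand and a position at its start changed in opposite directions. The position on the strand (chr5:4694715) held 0.488% and 0.860% in fiery1, against 35.2% and 29.8% in wild type (limma, adjusted p = 0.0226). The first base of the strand (chr5:4694705) held 9.19% and 8.19% in fiery1, against 0.260% and 0.0164% in wild type (limma, adjusted p = 0.0491). The 10 nt between the 2 ends can be read in the stretches around them, in which the capitals follow the end.
MIR398c, chr5:4694690-4694719, plus strand: gtagtggatctcgacAGGGTTGATATGAGA
MIR398c, chr5:4694700-4694729, plus strand: tcgacagggttgataTGAGAACACACGAGC
A fragment that starts at the first base of the 5′-arm strand includes both duplex strands and the loop, since the primers lie downstream.

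MIR399b and MIR399c, which carry the same mature miR399 and differ outside it, used the same 2 distances from the site but in another order. In MIR399b the position 2 nt before the base-proximal site held 61.5% and 57.7% in fiery1, against 99.4% and 99.9% in wild type (limma, adjusted p = 0.0270). Its base-proximal site held 21.9% and 30.9% in fiery1, against 0.402% and 0.0949% in wild type (limma, adjusted p = 0.0270). In MIR399c it was the base-proximal site that held nearly all wild-type counts, with 73.1% and 76.4% in fiery1, against 99.8% and 99.8% in wild type (limma, adjusted p = 0.0203). The position 2 nt before it in MIR399c held 11.1% and 10.7% in fiery1, against 0.0379% and 0.149% in wild type (limma, adjusted p = 0.0226). In both precursors the most used wild-type end kept the largest share in fiery1.

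In MIR403 an end upstream of the hairpin (chr2:19415006) was absent from the fiery1 counts. It held 0% in both fiery1 libraries, which allows up to 0.125% and 0.0677%, against 12.3% and 22.6% in wild type, and could only be lower. It was the only 1 of the 41 positions with no count in either fiery1 library. In MIR166a and MIR173 the positions that fell were the main base-proximal ones, at 89.8% and 93.3% in fiery1, against 100% in each wild-type library for MIR166a, and at 70.2% and 63.3% in fiery1, against 100% in each wild-type library for MIR173.

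**Figure D3:**
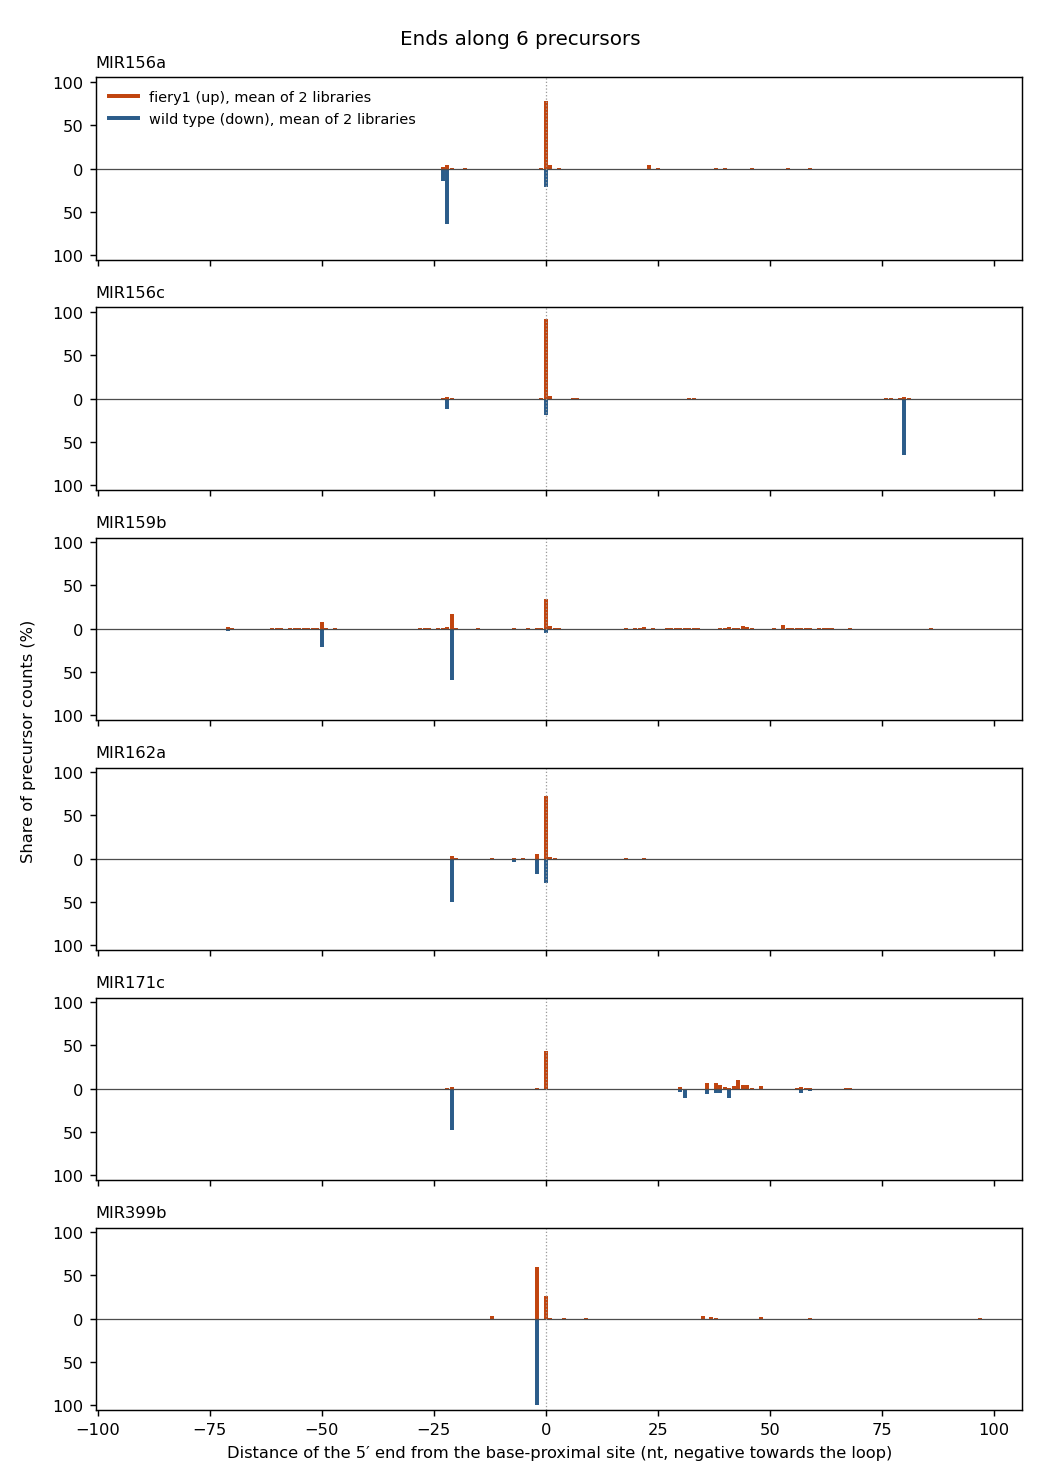
Share of each precursor's counts (y axis, %) by distance of the 5′ end from the base-proximal site (x axis, nt), for 6 precursors. Bars up are the mean of the 2 fiery1 libraries and bars down the mean of the 2 wild-type libraries. MIR156a, MIR159b, MIR162a and MIR171c have their tallest fiery1 bar at 0 and their tallest wild-type bar at the loop-proximal end, 21 or 22 nt away, while MIR156c has its tallest wild-type bar 80 nt downstream.

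**Figure D4:**
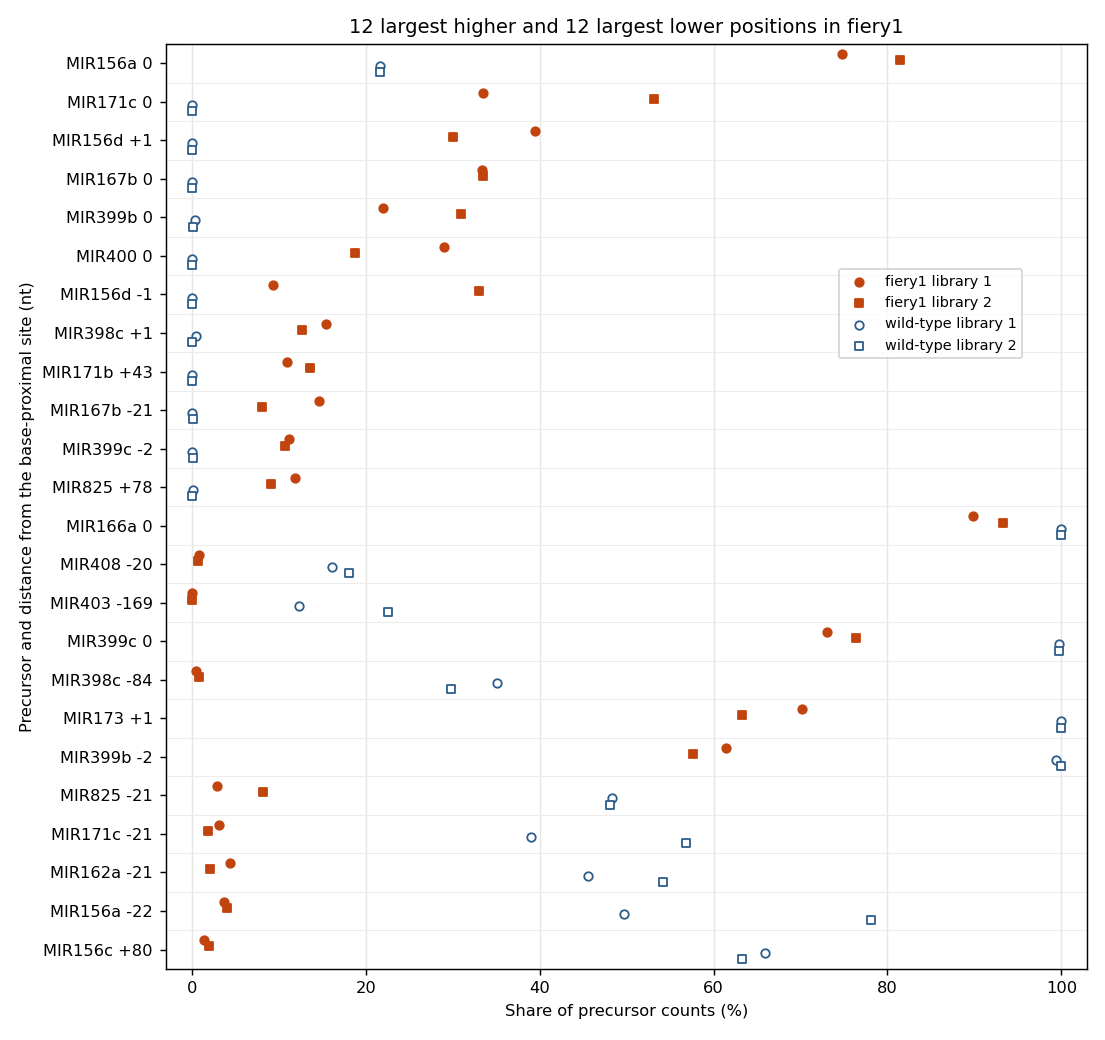
Share of precursor counts (x axis, %) in the 4 libraries at the 12 positions with the largest rise and the 12 with the largest fall in fiery1 among those with an adjusted p under 0.05 (limma) and no overlap between the genotypes. Names give the precursor and the distance from the base-proximal site in nt. MIR171c at 0 stands at 33.5% and 53.2% in fiery1 and under 0.1% in wild type, and MIR156c at +80 stands at 1.41% and 2.01% in fiery1 and above 63% in wild type.

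The ends of a precursor were spread over more positions in fiery1 in several cases. The spread was measured as the inverse Simpson index, which gives the number of equally used positions that would be as concentrated. It was higher in fiery1 in 8 of 25 precursors (32%) and lower in 2 (8%), by limma on its log2. MIR159b used 6.54 and 6.28 effective positions in fiery1, against 2.52 and 2.41 in wild type (limma, adjusted p = 0.00198). MIR156d used 3.98 and 4.13 in fiery1, against 1.01 and 1 in wild type (limma, adjusted p = 0.00137). MIR167b had the highest value among the 25, with 6.76 and 7.32 in fiery1, against 1.01 and 1.93 in wild type (limma, adjusted p = 0.0280). In all 3 of these the fiery1 libraries lay above both wild-type libraries.

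The other 5 that rose were MIR399b, MIR779, MIR399c, MIR173 and MIR825. MIR779 used 3.67 and 3.62 effective positions in fiery1, against 1.9 and 1.83 in wild type (limma, adjusted p = 0.00317). MIR156c and MIR157c passed in the other direction, but the log2 difference of MIR157c was 0.06 with the exponential of the Shannon entropy (limma, adjusted p = 0.765), and its call was lost when any 1 of the 4 libraries was left out. MIR156c used 1.17 and 1.24 effective positions in fiery1, against 1.82 and 2.15 in wild type (limma, adjusted p = 0.0280). The same 10 precursors were called when each was thinned to its lowest library. There were 6 calls without fiery1 library 1, 7 without fiery1 library 2, 11 without wild-type library 1 and 14 without wild-type library 2.

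The 2 fiery1 libraries were closer to each other than the 2 wild-type libraries were in most precursors. The difference between 2 libraries was taken as the percentage of a precursor's counts that would have to move for the positions to match. Over the 25 precursors its median was 9.17% between the fiery1 libraries (0% to 34.2%), against 20.5% between the wild-type libraries (0% to 100%), and 35.6% between the genotypes. It was smaller within fiery1 than within wild type in 20 of the 25. In 15 precursors each of the 4 comparisons between the genotypes exceeded both values within a genotype.

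Some wild-type profiles did not repeat between libraries. In MIR156d the wild-type libraries shared no position, with 99.6% of the first at a position 8 nt into the 3′-arm strand and 100% of the second at its first base. In MIR167b they differed by 99.8%, with 99.3% of the first library at a position 4 nt into the predicted 3′-arm strand, and 60.8% of the second 4 nt downstream of the base-proximal site. The fiery1 libraries of these precursors differed by 34.2% in MIR156d and 21.4% in MIR167b. In both precursors the genotypes thus differed less than the wild-type libraries did from each other, while the base-proximal positions that rose in fiery1 had no count in wild type.

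**Figure D5:**
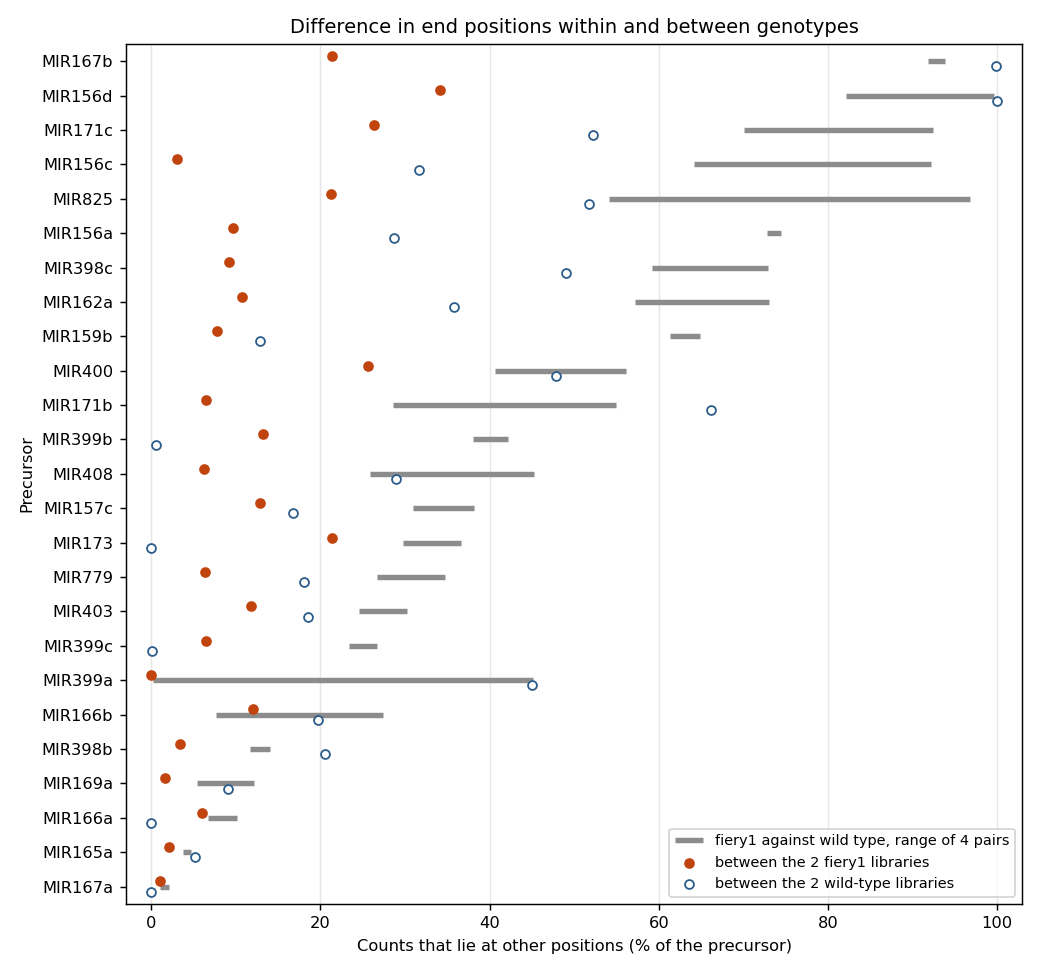
Percentage of a precursor's counts at other positions (x axis) between the 2 fiery1 libraries, between the 2 wild-type libraries and, as a grey bar, over the 4 pairs of a fiery1 and a wild-type library, for 25 precursors. The fiery1 libraries differ by at most 34.2%, and the wild-type libraries by 99.8% in MIR167b and 100% in MIR156d.

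As a share of the library, 10 of 74 precursors were higher in fiery1 (13.5%) and 5 were lower (6.76%), by edgeR's quasi-likelihood test at an adjusted p under 0.05. These shares are relative, because all precursors of a library share 1 total, and in whole seedlings fewer cells with a precursor and less of it per cell cannot be told apart. Of the 10 that rose, 7 had no wild-type count: MIR162b, MIR171a, MIR395c, MIR395f, MIR397a, MIR447a and MIR771. They passed the filter on low counts without wild type and could only be higher in fiery1, so their number is a description. MIR168b, with 0 and 1 wild-type counts, also passed the filter without wild type. With no filter, 0 rises and 5 falls were called, and with fiery1 and wild type alone in the model 33 rises and 7 falls. Scaling to library totals without TMM moved the median log2 fold change of the 74 by 0.57. By edgeR no precursor was called without fiery1 library 1, without fiery1 library 2 or without wild-type library 1 (6, 8 and 30 at an unadjusted p under 0.05), and 2 were called without wild-type library 2. On all libraries DESeq2's Wald test called 21, of which 7 were among the 15, and gave no adjusted p for the other 8 of the 15.

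In 8 of the 10 precursors that rose, the position most used in fiery1 was the base-proximal site. The same held, within 1 nt, for every precursor that fell, so this does not set the rises apart. MIR164b, whose miRNA targets NAC factors of the CUC type that set organ boundaries, had 16923 and 20227 counts in fiery1, against 8 and 7 in wild type. Of these, 11152 and 14539 in fiery1, against 5 and 3 in wild type, started exactly at its base-proximal site, which is the first base behind the capitals.
MIR164b (AT5G01747), chr5:287704-287748, plus strand: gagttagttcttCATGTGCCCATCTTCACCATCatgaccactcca
Its log2 fold change was 7.97 ± 1.98 (SE; edgeR, adjusted p = 0.0244). MIR395f, whose miRNA accumulates when sulfate is short, had 179 and 506 counts in fiery1, against 0 and 0 in wild type, and all of them started at the base-proximal site. MIR397a, a regulator of laccases, had 175 and 491 counts in fiery1, against 0 and 0 in wild type, of which 161 and 402 in fiery1 lay at that site. Its direction holds for tags of 26 nt or more, since over tags of all lengths its log2 fold change was -1.19 (edgeR, adjusted p = 0.655). MIR168b, whose miRNA targets AGO1, had 120 and 348 counts in fiery1, against 0 and 1 in wild type, with 94 and 224 at the site in fiery1 and the 1 wild-type count there too. The exceptions were MIR771 and MIR447a, which had no base-proximal count in fiery1. The most used fiery1 end of MIR771 lay upstream of the hairpin, with 66 and 42 of 184 and 124 counts, and that of MIR447a lay on the 3′-arm strand, with 26 and 170 of 84 and 199 counts. In MIR162b and MIR171a the site held 21.3% and 26.5% in fiery1 library 1, and 76.6% and 58.7% in fiery1 library 2.

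Most fiery1 counts of MIR156c lay at its base-proximal position. It had 28953 and 41710 counts in fiery1, against 373 and 458 in wild type (log2 fold change 3.11 ± 0.71, SE; edgeR, adjusted p = 0.0198). The base-proximal position held 26783 and 37456 of these in fiery1, against 126 and 22 in wild type, and when the most used position of every precursor was left out, its log2 fold change was -0.10 (edgeR, adjusted p = 0.926). Among the precursors that fell, MIR159b held 9.19% and 14.6% of the library in fiery1, against 30.7% and 27.5% in wild type (edgeR, adjusted p = 0.0198). MIR171c had 2428 and 7019 counts in fiery1, against 2203 and 2581 in wild type, so that it fell as a share of the library (log2 fold change -2.50 ± 0.70, SE; edgeR, adjusted p = 0.0362) while its base-proximal counts were 813 and 3731 in fiery1, against 1 and 2 in wild type. MIR398b, MIR169a, MIR398c and MIR779, the others among the 6 precursors with the most counts, did not pass, with adjusted p between 0.148 and 0.768 by edgeR. By list, beside the 13.5% that rose and 6.76% that fell of all 74, 5 of the 38 base-to-loop precursors tested rose and 2 fell, which is near those shares, 3 of the 17 loop-to-base precursors rose and 2 fell, and 2 of the 5 silencing-pathway regulators rose and 0 fell. Of these rises, MIR395c, MIR395f and MIR397a (base-to-loop) and MIR162b and MIR171a (loop-to-base) had no wild-type count and could only be higher. The lists were drawn by family number, not by how each single precursor is cut. The silencing-pathway rises were MIR162b and MIR168b, the latter with 0 and 1 wild-type counts, so these list counts are a description.

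More precursors and positions were also seen in fiery1 when the libraries were thinned to 56554 counts, the depth of the shallowest. On average over 100 draws 85.37 and 85.53 precursors were seen in fiery1, against 51 and 47.25 in wild type. The positions numbered 959.95 and 950.96 in fiery1, against 170 and 192.58 in wild type (exact permutation p = 0.33 each, the smallest possible). Counting only positions with at least 2 counts after thinning left a mean of 802 in fiery1 and 124 in wild type. Thinning evens out counts of amplified reads. It cannot even out the molecules behind them, because the reads carry no molecular identifiers. Among the precursors, 17 had at least 400 counts over both fiery1 libraries and 1 to 20 over both wild-type libraries. Of their 64 wild-type counts, 45 (70.3%) started at the position most used in fiery1. In MIR160a, whose miRNA targets auxin response factors, 6 of 8 wild-type counts did so, at the base-proximal site that held 95.7% of the fiery1 counts. In MIR393a, whose miRNA targets auxin receptors, it was 4 of 5, at the site that held 84.1% of the fiery1 counts.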

How the data were processed

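The deposited files list, for each library, tags with their precursor, start position, length and count. The counts are whole numbers that the authors had not normalised, as judged from the files. The submitters' processing notes name cutadapt, with no version, and TAIR10 as the genome build. Which aligner was used was not given in the sources used here. Per the labels' protocols, DNase-treated RNA was ligated with T4 RNA ligase, copied with specific primers and amplified by PCR. The reads carry no molecular identifiers, so limits cover counting error only.

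The 111 entries were placed on TAIR10.1 by exact matching of their tags and merged into 108 precursors, of which 90 had tags of 26 nt or more in the 8 libraries and 88 in the 4 used here. Of the counts, 99.6% matched the reference. Lines whose count was blank (13, of which 10 were of MIR408) were left out. A hits column whose meaning is not stated was not used for filtering. Duplex strands came from the RefSeq annotation, or from RNAfold 2.7.2 where an arm was not annotated, and mature sequences were read from the genome at annotated coordinates.

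For abundance, edgeR 4.0.16 was run on all 8 libraries in 1 model, with TMM scaling, a filterByExpr minimum of 10 counts and the quasi-likelihood test. The libraries beside fiery1 and wild type were of hyl1 and se, and they entered the scaling, the filter and the estimate of the spread. Shares of positions, site shares (within 1 nt) and the log2 inverse Simpson index were tested with limma 3.58.1 on the 4 libraries, and needed 20 or more counts of the precursor in each. Shares were taken to log2 odds with an offset of 0.5 counts, and positions with at least 5% in at least 1 library were tested. P-values were adjusted by the Benjamini-Hochberg method over all features of a test and called under 0.05. Values per library went into exact permutation tests, two-sided. The edgeR and limma tests were tried on simulated data in which all libraries had the same spread. The real wild-type libraries differed more than the fiery1 libraries, and the trial does not cover that case. Alternatives included DESeq2 1.42.0, other offsets and filters, all tags, a replicate block and leaving out each library.

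Text names the precursors called in abundance and the 6 with the most counts, and up to 12 of the largest rises and falls of each other test without overlap between genotypes. The few others named were chosen after their values were seen. The comparison, the members and the family lists were chosen with earlier results of these data known.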

Additional observations from a re-analysis of the deposited data

How the results depend on the processing

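Calls rested on few libraries. Leaving out each library in turn gave 0 to 2 abundance calls (main count 15), 0 to 84 position calls (41), 0 to 19 base-proximal calls (12), 8 to 15 loop-proximal calls (11) and 6 to 14 calls of the effective number of positions (10). With no filter on low counts abundance had 5 calls (0 higher in fiery1, so none of the 10 rises), with fiery1 and wild type alone in the model 40 (33 higher), over all tags 1 and without the most used position of each precursor 1. Position calls numbered 330 with no share minimum and 12 with diffSpliceDGE. Loop-proximal calls numbered 6 with the offset of 0.5% of the precursor's counts. With the replicate block abundance had 0 calls by edgeR (25 at an unadjusted p under 0.05), positions 0 by limma (42) and loop-proximal shares 7, while base-proximal shares had 8 and the effective number 9. The libraries share only a replicate number, and the correlation of their deviations was between 0.004 and 0.358 over the 5 measures.

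Some directions reversed, and the cause was not tested. The log2 fold change was -0.10 for MIR156c without its most used position, -1.19 for MIR397a over all tags, -1.04 to 0.55 for MIR398b with a library left out, and -0.64 and -0.11 for MIR779 with no filter and without fiery1 library 1. The log2 odds were 1.86 for the base-proximal share of MIR173 at the exact position and 0.00 for the loop-proximal shares of MIR167a and MIR399c with the proportional offset. The log2 effective number of MIR157c differed by 0.06 with the Shannon entropy. Differences in class shares were 0.18 and 0.26 points for the loop without MIR159b and without the 3 most abundant precursors, and -8.05 points for downstream ends over all tags. Ends on the 3′-arm strand were at -1.28 points as a mean over precursors, -0.58 without MIR159b, -0.47 without the 3 most abundant precursors, and -0.48 to 2.52 with a library left out. With a library left out, ends on the 5′-arm strand ranged from -1.36 to 0.37 points and upstream ends from -0.78 to 0.26 points. Of 863 recomputed values for 76 named items, 600 kept direction and side of the threshold.

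Wild-type depth, with as few as 32 counts of a tested precursor in a library, limits what a share of 0 can show, and the exact permutation test cannot give a p under 0.33.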
